A study of Mus musculus with 6 samples.

Results

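The nuclear genes for the subunits of respiratory complexes II, III, IV and V were followed in mouse left ventricle after pressure overload, with and without a Kdm3a transgene. Members were taken by gene symbol: Sdha to Sdhd for complex II, Cyc1 and symbols beginning Uqcr for complex III, symbols beginning Cox4 to Cox8 for complex IV and symbols beginning Atp5 for complex V. The array held 44 such symbols, and 40 of them had a probe with detection p below 0.01 on at least 2 of 6 arrays, among 9577 named genes measured in the same way. Complex II had 3 of 4 members measured, complex III 7 of 8, complex IV 14 of 16 and complex V 16 of 16. The probes for Sdha, Uqcrfs1, Cox7b2 and Cox8c were detected on 0 arrays.

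All animals were male C57BL/6 mice operated on at 6 to 8 weeks of age, and the left ventricle was taken 3 weeks later by the labels, although the study's text gives a longer time. Surgery was transverse aortic constriction (TAC), in which a band narrows the aorta so that the ventricle pumps against a higher load, or a sham operation. Kdm3a-Tg (Tg) mice carried a FLAG-tagged cDNA of Kdm3a, a histone H3 lysine 9 demethylase, behind the αMHC promoter, which is active in heart muscle cells. The study states that its primary data come from a single transgenic line, and the labels do not name a line. The 6 arrays held 2 Tg TAC, 1 Tg Sham, 2 wild-type (WT) TAC and 1 WT Sham ventricles, each from its own numbered mouse. The sham mice and the TAC mice of replicate 1 bear numbers of a shared series, and the TAC mice of replicate 2 bear numbers of another. The labels call the sample left ventricle, and the study's text describes profiling both of hearts and of isolated cardiomyocytes. All 10 fibroblast markers and 10 of 12 endothelial markers listed were measured here, and 15 of 16 cardiomyocyte markers were, the exception being Tnnt2.

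Complex II, succinate dehydrogenase, takes electrons from succinate of the citric acid cycle and passes them to ubiquinone. Complex III hands them on to cytochrome c, and complex IV, cytochrome c oxidase, gives them to oxygen. Complexes III and IV pump protons, and complex V, the ATP synthase, lets protons flow back through its c ring and turns the central stalk inside the F1 head to make ATP. Complex II is built from nuclear genes alone, while complexes III, IV and V also contain subunits encoded by mitochondrial DNA. Heart muscle is very rich in mitochondria, and several complex IV subunits have a heart and muscle isoform next to a ubiquitous one.

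The transgene check came out against 2 labels. The Kdm3a probe with the widest range had raw intensities of 34642 and 33540 in the Tg TAC ventricles and 247 in the library labelled Tg Sham. In the libraries labelled WT TAC replicates 1 and 2 it read 30614 and 229, and in WT Sham 341. On this probe the library labelled WT TAC replicate 1 carried as bright a signal as the Tg TAC ventricles, and the library labelled Tg Sham carried none above the WT level. Groups were kept as labelled, and the numbers of members higher and lower and the main genes of Tg TAC against WT TAC are also given without these libraries, which leaves 1 WT TAC array. The check rests on 1 of 4 Kdm3a probes, since of the other probes 1 was not detected, and the others, detected on every array, read 238 to 301 and at most 755 with no step in the Tg TAC ventricles. Each array had 15643 to 16492 probes detected and a raw median between 112.63 and 119.8. The arrays differed more among bright probes, with a raw 75th percentile of 176.06 to 212.28. The raw maximum was 42567.2 and 41853.9 in Tg TAC and 40242.5 in the library labelled Tg Sham. It was 45692.4 and 43292.3 in WT TAC and 48324.6 in WT Sham.

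The subunit probes were bright. Of the 40 probes, 21 stood in the top 1% of probes used for named genes and 30 in the top 5%, and 3 lay below the median. Brightness of a probe is not an abundance, and subunits were not ranked against each other. Levels below are log2 intensities after background correction and quantile normalization, and differences are in log2 units. The median SD within the pairs of TAC replicates was 0.11 for the members, 0.21 for all genes and 0.10 for the brightest 1% of genes. Over all 6 arrays 26 members stayed within 0.5 log2 units from lowest to highest.

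**Figure D1:**
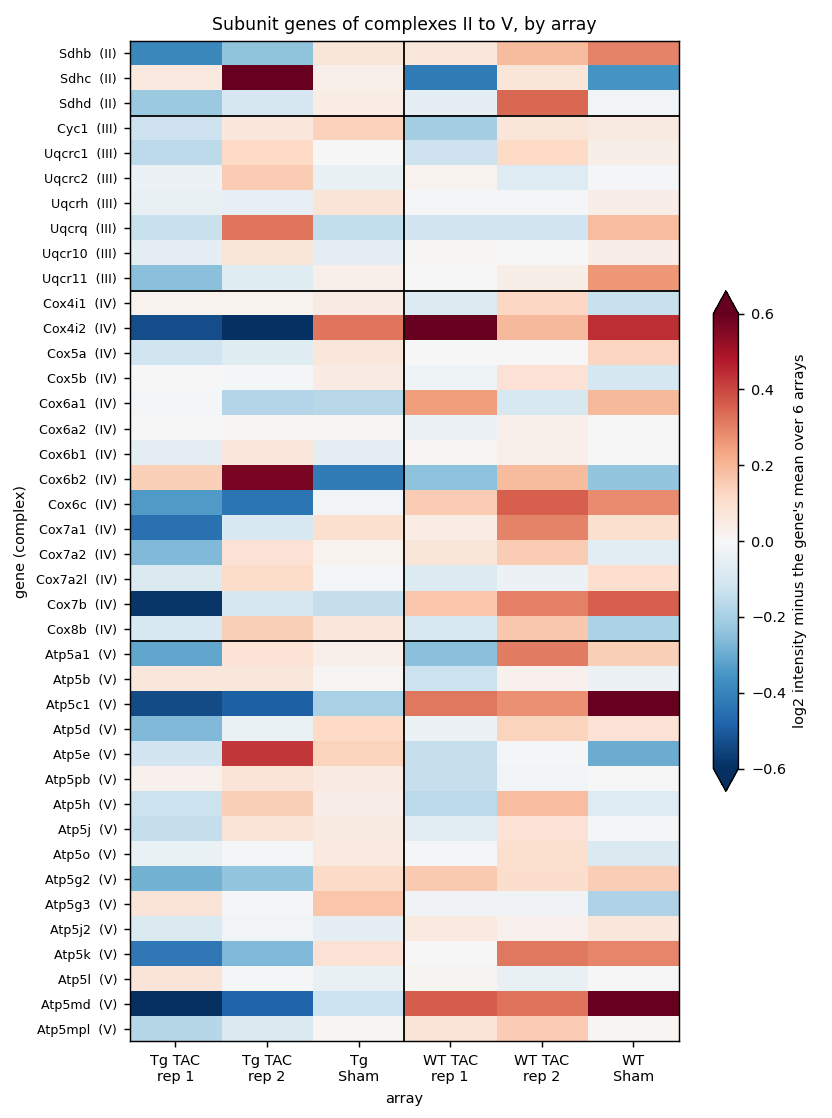
Normalized log2 intensity of each of the 40 measured subunit genes on each of the 6 arrays (columns, as labelled), minus the gene's own mean over the arrays, with genes in rows by complex. Colours saturate at 0.6 log2 units either way; Atp5c1, Atp5md, Cox6c and Cox7b are below their mean on the 3 Tg arrays and above it on the 3 WT arrays, while complex III stays mostly pale apart from Uqcrq and Uqcr11.

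The first comparison asked what the transgene went with under pressure overload. In Tg TAC against WT TAC ventricles, 14 members lay above and 26 below, and their median difference was -0.04, while over all genes the median was 0.01 and 48.8% were lower. No member passed limma's test at an adjusted p of 0.05, and 0% of the 9577 genes did. At an unadjusted p below 0.05, 697 genes (7.28%) and 7 members were counted. All 7 members were lower in Tg TAC: Atp5c1, Atp5md and Atp5g2 of complex V, Cox4i2, Cox6c and Cox7b of complex IV, and Sdhb of complex II. The pair of Tg TAC arrays lay below both WT TAC arrays for 16 members, or 40%, against 18.8% of all genes, and above both for 3 members, or 7.5%, against 20.7% of all genes. The members are components of the same machines and share arrays, so these counts are not independent of each other.

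The count changed when single arrays were left out. TAC mice of replicates 1 and 2 bear numbers of different series, so leaving out 1 TAC array also unbalances these series between the groups. By replicate number, the members' median relative to each gene's mean was -0.12 in Tg TAC against -0.01 in WT TAC for replicate 1. For replicate 2 it was -0.01 against 0.09. Without Tg TAC replicate 1 there were 20 members higher and 20 lower (50%, against 48.5% of all genes), and without WT TAC replicate 2 there were 19 higher and 21 lower. Without Tg TAC replicate 2 there were 7 higher and 33 lower. Without both doubted libraries, 12 were higher and 28 lower (70%, against 49.7% of all genes). The members' median was then -0.11, against 0.0025 over all genes. When arrays were aligned on their medians in place of quantiles, the median of all genes moved to -0.12 and that of the members to -0.20. Then 34 of 40 members, or 85%, were lower in Tg TAC, against 65.4% of all genes. This scaling aligns only the middle of each array, most members are among the brightest genes, and equally bright genes were not compared. Relative to all genes, the members' median stood at -0.05 after quantile normalization and -0.08 after median scaling. The raw median of the members was 11959 and 11384 in Tg TAC, 14525 in the library labelled Tg Sham, 18735 and 18480 in WT TAC and 20315 in WT Sham. On the Tg TAC arrays this median fell beside Atp5c1, which read 11693 and 11229. The members' summed share of all raw signal was 2.91% and 3.23% in Tg TAC and 3.34% in the library labelled Tg Sham. It was 3.11% and 3.42% in WT TAC and 3.4% in WT Sham.

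**Figure D2:**
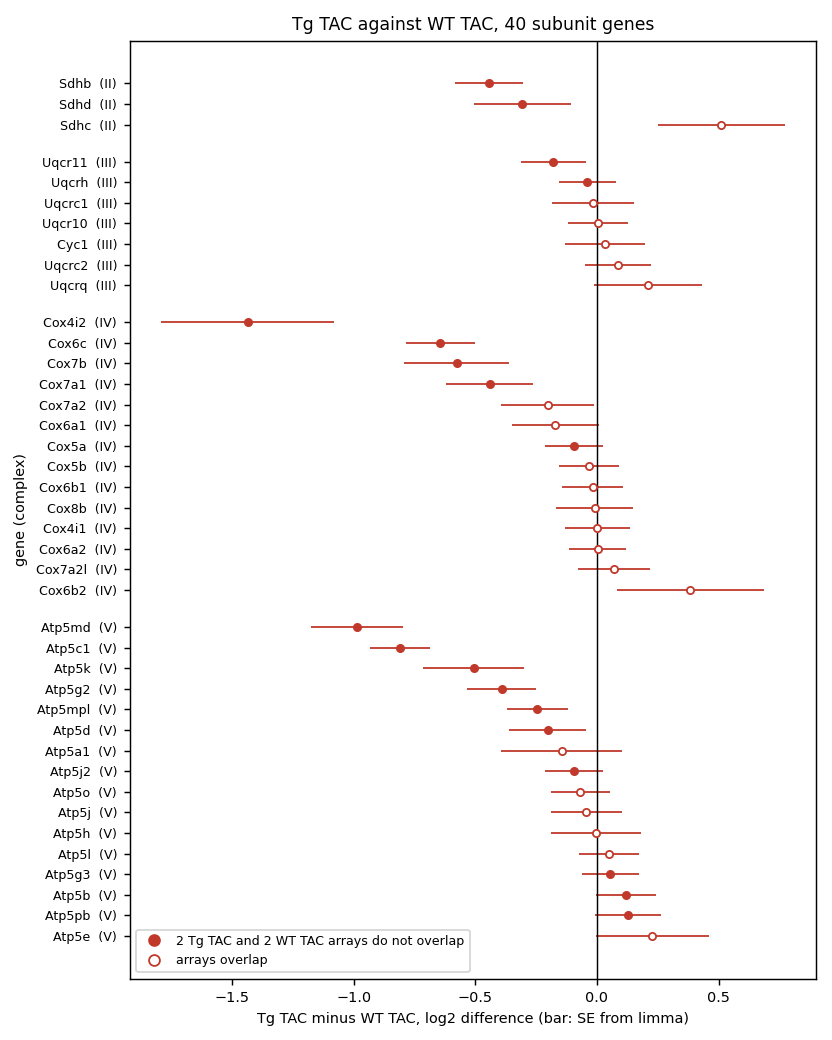
Log2 difference Tg TAC minus WT TAC for 40 subunit genes, grouped by complex, with bars for the SE from limma (2 arrays against 2). Filled points mark genes whose Tg TAC and WT TAC arrays do not overlap: 16 lie left of 0 and 3 (Atp5b, Atp5pb, Atp5g3) right of it.

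In complex V, 5 of 16 members were higher and 11 lower in Tg TAC, with a median of -0.08. By the probe used for each gene, the widest differences were those of Atp5md (-0.99), Atp5c1 (-0.81) and Atp5k (-0.51). Atp5c1, which encodes the gamma subunit, the shaft that turns within the F1 head, read 13.55 and 13.60 in Tg TAC against 14.40 and 14.36 in WT TAC. It read 13.90 in the library labelled Tg Sham and 14.72 in WT Sham. Every array labelled Tg was thus below every array labelled WT. The difference Tg TAC minus WT TAC was -0.81 ± 0.12 (SE, n = 2 each), a fold of 0.571 (limma adjusted p = 0.67). Without the doubted libraries it was -0.79. Only 1 probe on the array targets Atp5c1.

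Atp5md, the gene for the small membrane subunit also called DAPIT, followed the same order. It read 8.66 and 8.98 in Tg TAC against 9.83 and 9.79 in WT TAC, and 9.34 in the library labelled Tg Sham against 10.19 in WT Sham. The difference in TAC ventricles was -0.99 ± 0.19 (SE, n = 2 each; limma adjusted p = 0.67), and -0.97 without the doubted libraries. Both genes were chosen for a small p between the groups as labelled, so their separation by label is a description. The library labelled WT TAC replicate 1, with a bright Kdm3a probe, had Atp5c1 and Atp5md slightly above WT TAC replicate 2, and the library labelled Tg Sham, with a dim one, was below all WT arrays for both genes.

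The F1 head and the peripheral stalk differed less than Atp5c1 on their brightest probes. The F1 head genes Atp5a1 and Atp5b, for the alpha and the catalytic beta subunit, differed by -0.14 and 0.12 between Tg TAC and WT TAC. All 4 peripheral stalk genes (Atp5pb, Atp5h, Atp5j and Atp5o), whose products hold the head still, lay within 0.2 log2 units of 0 by the probe used. Dimmer probes gave -0.63 and -0.02 for Atp5o, -0.22 for Atp5j, and 0.27, -0.48 and -0.41 for Atp5pb. The Atp5o probe at -0.63 was detected on 4 arrays only. Of the central stalk genes, Atp5d had a difference of -0.20 and Atp5e one of 0.23. In the membrane part, 2 of 7 genes lay above and 5 below, and the median was -0.25. Here Atp5k, for subunit e, read 7.47 and 7.64 in Tg TAC against 7.91 and 8.22 in WT TAC, and 7.99 in the library labelled Tg Sham against 8.20 in WT Sham. Its difference was -0.51 ± 0.21, or -0.66 without the doubted libraries. The dimmer probe for Atp5k gave -0.85, but it was detected on 4 arrays only. It had raw intensities of 129 and 133.6 in Tg TAC, near the floor, so that size is uncertain.

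The c ring through which the protons pass is encoded by 3 genes for 1 identical mature protein, of which Atp5g2 and Atp5g3 are among the annotated symbols. Atp5g2 read 11.42 and 11.46 in Tg TAC, 11.81 in the library labelled Tg Sham, 11.85 and 11.80 in WT TAC and 11.85 in WT Sham. Both Tg TAC arrays were therefore below the other 4, which lay close together, with a difference of -0.39 ± 0.14 from WT TAC, or -0.37 without the doubted libraries. Atp5g3 read 15.27 and 15.19 in Tg TAC, 15.36 in the library labelled Tg Sham, 15.18 and 15.18 in WT TAC and 15.02 in WT Sham, so that the arrays labelled Tg were above those labelled WT by narrow margins. Of 12 members with more than 1 detected probe, 4 had probes that disagreed in sign between Tg TAC and WT TAC (Atp5l, Atp5mpl, Atp5pb and Cox6b1), so their direction depends on the probe.

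**Figure D3:**
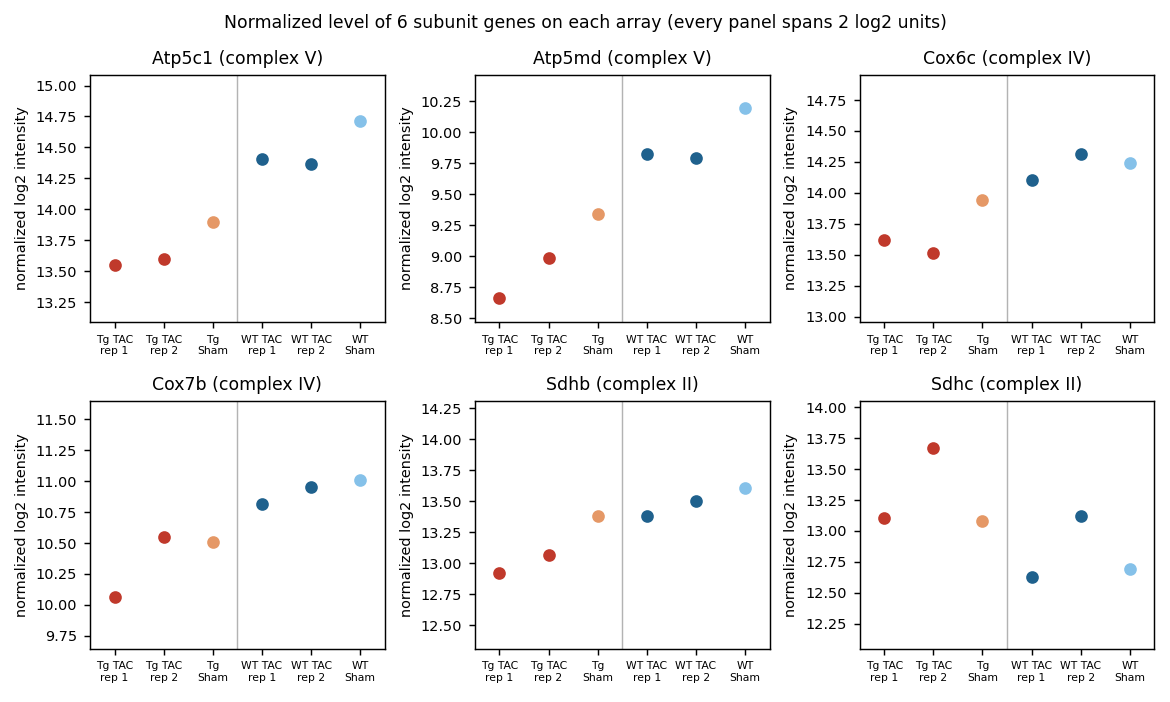
Normalized log2 intensity on each array (1 point per ventricle, n = 1 or 2 a group) for Atp5c1, Atp5md, Cox6c, Cox7b, Sdhb and Sdhc, each panel spanning 2 log2 units. The first 4 genes are lower on all 3 arrays labelled Tg than on all 3 labelled WT, Sdhb overlaps at 13.38 and Sdhc runs the other way with overlap.

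In complex IV, 4 of 14 members were higher and 10 lower in Tg TAC, with a median of -0.06. Cox6c, for a small membrane subunit, read 13.62 and 13.52 in Tg TAC and 13.94 in the library labelled Tg Sham, against 14.11 and 14.32 in WT TAC and 14.24 in WT Sham. The Tg TAC minus WT TAC difference was -0.64 ± 0.14 (SE, n = 2 each; limma adjusted p = 0.67), and -0.75 without the doubted libraries. Cox7b, for another small subunit, read 10.06 and 10.55 in Tg TAC and 10.51 in the library labelled Tg Sham, against 10.81 and 10.95 in WT TAC and 11.01 in WT Sham. Its difference was -0.58 ± 0.22, and -0.64 without the doubted libraries. In both genes all arrays labelled Tg were below all arrays labelled WT.

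Subunit 4 has a ubiquitous isoform, Cox4i1, and a second one, Cox4i2, known for its expression in lung and in vessel wall cells. Cox4i2 had the widest range of all members, with 7.05 and 6.29 in Tg TAC, 7.90 in the library labelled Tg Sham, 8.44 and 7.77 in WT TAC and 8.02 in WT Sham. The Tg TAC arrays were below the other 4, and the difference from WT TAC was -1.44 ± 0.36 (limma adjusted p = 0.67), or -1.10 without the doubted libraries. On the authors' normalized values, which had no background subtraction, it was -0.92. Cox4i1 read 14.86 and 14.86 in Tg TAC, 14.88 in the library labelled Tg Sham, 14.75 and 14.96 in WT TAC and 14.70 in WT Sham, so the groups overlapped.

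Levels of vessel wall markers were read beside Cox4i2. Of 10 smooth muscle and pericyte markers listed, 9 were measured, and 7 of 9 were lower in Tg TAC than in WT TAC, with a median of -0.31, although 0 passed an adjusted p of 0.05. Kcnj8, Abcc9 and Cspg4 differed by -0.09, -0.03 and 0.11, and Acta2 by 0.60. Of 10 measured endothelial markers, 7 were lower, with a median of -0.19. The median of the 9 relative to each gene's mean was -0.19 and -0.33 in Tg TAC, 0.09 in the library labelled Tg Sham, 0.16 and 0.01 in WT TAC and 0.13 in WT Sham. Their summed normalized intensity was 10577 and 12497 in Tg TAC against 12599 and 6923 in WT TAC, and it is led by Acta2, which ran the other way. Notch3, a pericyte and smooth muscle receptor, was lower by a difference of -0.70 (limma adjusted p = 0.67), and Cnn1 was not measured. The part of these cells in the Cox4i2 difference was not tested. In whole ventricle, fewer cells of a type and less RNA per cell cannot be told apart.

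**Figure D4:**
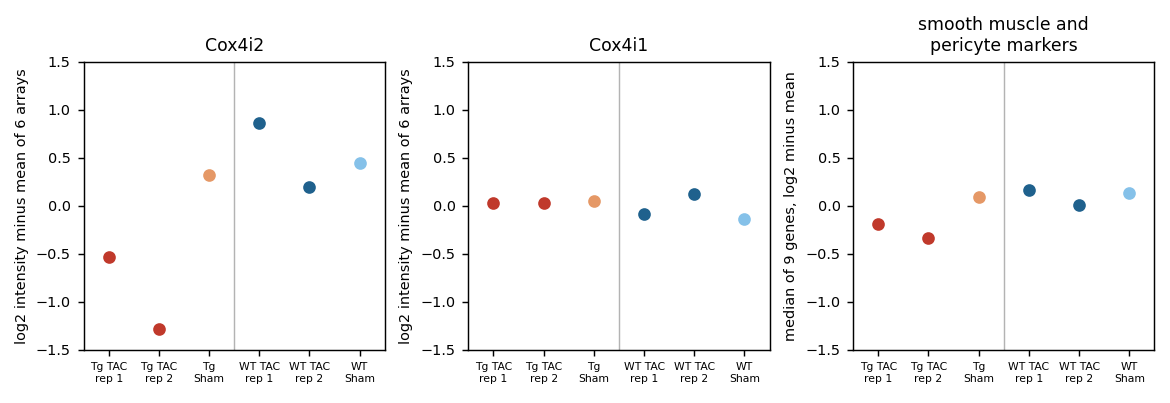
Cox4i2 and Cox4i1 on each array, as log2 intensity minus the gene's mean over 6 arrays, beside the median of 9 smooth muscle and pericyte marker genes on the same scale. Cox4i2 and the marker median both have their lowest values on the 2 Tg TAC arrays, whereas Cox4i1 stays within 0.26 log2 units.

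The heart and muscle isoforms of complex IV differed in range over the arrays, with 0.06 log2 units for Cox6a2, 0.35 for Cox8b and 0.75 for Cox7a1. Their probes read near the top of the scale, where members in the top 1% had a median SD of 0.064 within TAC pairs. Whether the scale narrows differences there was not tested. Cox6a2 spanned 0.06 log2 units over the 6 arrays, from 15.17 in WT TAC replicate 1 to 15.23 in WT TAC replicate 2. Its ubiquitous partner Cox6a1 read 12.52 and 12.35 in Tg TAC, 12.37 in the library labelled Tg Sham, 12.78 and 12.44 in WT TAC and 12.73 in WT Sham, so the arrays overlapped. Cox8b, the muscle isoform of subunit 8, read 14.54 and 14.77 in Tg TAC, 14.70 in the library labelled Tg Sham, 14.53 and 14.79 in WT TAC and 14.44 in WT Sham. Cox7a1, the muscle isoform of subunit 7a, had the widest range of the heart and muscle isoforms. It read 14.39 and 14.75 in Tg TAC, 14.94 in the library labelled Tg Sham, 14.89 and 15.14 in WT TAC and 14.94 in WT Sham, so that the Tg TAC arrays were below the other 4. The difference was -0.44 ± 0.18 (limma adjusted p = 0.68), and -0.57 without the doubted libraries. The ubiquitous Cox7a2 read 9.72 and 10.07 in Tg TAC, 10.003 in the library labelled Tg Sham, 10.06 and 10.14 in WT TAC and 9.92 in WT Sham, so the arrays overlapped.

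Cox6b1, the ubiquitous isoform of subunit 6b, stayed between 14.61 and 14.73 on all arrays. Its testis isoform Cox6b2 was near the detection limit, with 5.71 and 6.14 in Tg TAC, 5.15 in the library labelled Tg Sham, 5.32 and 5.76 in WT TAC and 5.33 in WT Sham. It was not detected in the library labelled Tg Sham, so the Tg TAC mean was at least 1.4-fold higher, measured against the lowest detected signal on that array. Between Tg TAC and WT TAC its difference was 0.38 ± 0.30, with overlap.

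In complex II, 2 of 3 measured genes were lower in Tg TAC and 1 was higher. Sdhb, for the iron-sulfur subunit that relays electrons from the catalytic site, read 12.92 and 13.07 in Tg TAC against 13.38 and 13.50 in WT TAC, with 13.38 in the library labelled Tg Sham and 13.61 in WT Sham. The difference was -0.44 ± 0.14 (limma adjusted p = 0.67), and -0.50 without the doubted libraries. Its 3 probes gave -0.44, -0.54 and -0.37. Sdhc, one of the anchors that hold the enzyme in the membrane, read 13.11 and 13.67 in Tg TAC, 13.08 in the library labelled Tg Sham, 12.63 and 13.12 in WT TAC and 12.70 in WT Sham. Its difference of 0.51 ± 0.26 was 0.27 without the doubted libraries, and the arrays overlapped. The other anchor, Sdhd, read 10.14 and 10.26 in Tg TAC, 10.41 in the library labelled Tg Sham, 10.31 and 10.71 in WT TAC and 10.35 in WT Sham. Its difference was -0.31 ± 0.20, and -0.51 without the doubted libraries.

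Complex III showed the narrowest spread of differences of the 4 complexes. Most of its probes were in the top 1% of level. Members there had a median range over the arrays of 0.23, against 0.35 for all members. In Tg TAC against WT TAC 4 of 7 members were higher and 3 lower, the median was 0.003 and 6 of 7 lay within 0.2 log2 units of 0. Uqcr11, a small membrane subunit, read 14.07 and 14.25 in Tg TAC, 14.35 in the library labelled Tg Sham, 14.32 and 14.36 in WT TAC and 14.58 in WT Sham. That is a difference of -0.18 ± 0.13, or -0.20 without the doubted libraries. Uqcrq, another small subunit, read 8.23 and 8.68 in Tg TAC, 8.21 in the library labelled Tg Sham, 8.25 and 8.25 in WT TAC and 8.54 in WT Sham, so that its Tg TAC replicates lay on both sides of WT TAC. Uqcrc2, for a core subunit, read 14.44 and 14.64 in Tg TAC, 14.44 in the library labelled Tg Sham, 14.50 and 14.40 in WT TAC and 14.47 in WT Sham. Cyc1, for the cytochrome c1 that passes electrons to cytochrome c, read 13.29 and 13.48 in Tg TAC, 13.55 in the library labelled Tg Sham, 13.21 and 13.49 in WT TAC and 13.47 in WT Sham. The arrays of the groups overlapped in both.

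A comparison of the 3 arrays labelled Tg with the 3 labelled WT, with surgery in the model, was added after the values were seen. It gave 17 members higher and 23 lower with a median of -0.02, against 0.02 over all genes. By limma 0% of all genes passed an adjusted p of 0.05, while 14.7% of all genes and 8 of 40 members had an unadjusted p below 0.05. This model has no term for the mouse number series. With that term, which rests on only 2 TAC pairs, 422 of 9577 genes passed, 5 of them members. All 3 Tg arrays were below all 3 WT arrays for 5 members (Cox6c, Cox7b, Atp5c1, Atp5j2 and Atp5md), or 12.5%, against 9.09% of all genes. They were above for 2 of 40 members (Atp5pb and Atp5g3), against 9.54% of all genes. The share below was near that of all genes, and neither count was tested against all genes. Other Atp5pb probes differed by 0.29, -0.43 and -0.45 between the means of the arrays labelled Tg and WT. Atp5c1 had the smallest p of the members, with a difference of -0.81 ± 0.09 (limma adjusted p = 0.16), and Atp5md followed with -0.94 ± 0.14 (limma adjusted p = 0.16). Cox6c was at -0.53 ± 0.12 and Cox7b at -0.55 ± 0.15. Between the single sham arrays, Tg Sham minus WT Sham, the differences were -0.82 for Atp5c1, -0.86 for Atp5md, -0.30 for Cox6c and -0.50 for Cox7b, which have no replicate check. Over 1 log2 unit apart were 0 members and 2.56% of all genes, and 2 members after median scaling.

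Promoters of the members were examined for letters bound by known regulators of respiratory genes. RefSeq promoters of GRCm38.p6 were at hand for 33 of the 44 symbols, and Cox6c had none. Searched were the 250 bases before the start, on both strands, for GCGCANGCG (NRF1), CCGGAAG (ETS factors such as GABP), GGGCGG (SP1) and TCAAGGTCA (the estrogen-related receptors). The stretches of Atp5c1, Atp5md and Cox7b, which separated by label, and of Sdhb, whose probes shared a direction but which did not separate by label, are shown 5′ to 3′ with matches to any of these letters in capitals. Atp5c1 has a pair of annotated starts, and the 30 bases before the downstream one are shown.
Atp5c1, chr2:10080433-10080462, minus strand: cgcctgagctcccGCGCACGCGcactgagt
Atp5md, chr19:47090648-47090897, minus strand: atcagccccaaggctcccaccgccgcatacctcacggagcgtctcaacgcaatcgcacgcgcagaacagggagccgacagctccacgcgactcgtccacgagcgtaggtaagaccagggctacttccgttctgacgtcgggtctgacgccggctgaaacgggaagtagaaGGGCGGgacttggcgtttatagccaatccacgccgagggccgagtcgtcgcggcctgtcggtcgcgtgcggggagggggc
Cox7b, chrX:106015450-106015699, plus strand: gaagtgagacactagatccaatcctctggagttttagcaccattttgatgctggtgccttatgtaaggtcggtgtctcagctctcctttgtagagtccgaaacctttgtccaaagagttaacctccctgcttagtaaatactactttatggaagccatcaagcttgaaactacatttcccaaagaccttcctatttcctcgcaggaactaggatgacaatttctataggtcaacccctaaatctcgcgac
Sdhb, chr4:140961021-140961270, plus strand: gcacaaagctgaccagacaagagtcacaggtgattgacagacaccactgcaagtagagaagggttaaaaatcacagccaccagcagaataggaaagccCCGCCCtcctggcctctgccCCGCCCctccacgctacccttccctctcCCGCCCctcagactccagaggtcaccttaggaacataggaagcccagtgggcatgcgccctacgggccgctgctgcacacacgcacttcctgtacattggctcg
Atp5c1 holds 1 NRF1 match close to the downstream start, Atp5md holds 1 SP1 match, Sdhb holds 3 SP1 matches and Cox7b holds 0 matches. Among the members the NRF1 letters were found in 8 of 33 (24.2%), against 5.86% of 27025 symbols in the table. The ETS letters were found in 9 of 33 (27.3%), against 7.83%, the SP1 letters in 12 of 33 (36.4%), against 35.4%, and the estrogen-related receptor letters in 1 of 33, that of Atp5g3, against 0.422%. The members with NRF1 letters were Sdha, Sdhd, Cox6a1, Atp5c1, Atp5h, Atp5g2, Atp5k and Atp5l, whose Tg TAC minus WT TAC differences, where measured, ran from -0.81 in Atp5c1 to 0.05 in Atp5l. A match is a run of letters and not a shown binding site.

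The response to TAC was compared within each genotype and over both. In WT ventricles, TAC minus Sham, 17 members were higher and 23 lower with a median of -0.02, against 0.04 over all genes, and without both doubted libraries the median was 0.03. In Tg ventricles 13 were higher and 27 lower with a median of -0.09, against 0.01 over all genes. Over both genotypes 15 were higher and 25 lower with a median of -0.03, while 45% of all genes were lower. Median scaling gave 36 of 40 lower (90%) against 43.9% of all genes over both genotypes, and 31 of 40 (77.5%) against 39.2% in Tg ventricles. Median scaling aligns only the middle of each array, while most members are among the brightest genes. No comparison with equally bright genes was made. Without both doubted libraries the comparison over both genotypes becomes the same contrast as within WT, WT TAC replicate 2 against WT Sham, 1 array each. There 23 members were higher and 17 lower (42.5%, against 43.4% of all genes). By limma, 0% of all genes and 0 members passed an adjusted p of 0.05 in WT TAC against WT Sham, 0% of genes in Tg TAC against Tg Sham, and 0% over both genotypes, where 5.84% of all genes and 3 members (Atp5c1, Atp5md and Sdhb) had an unadjusted p below 0.05. The sham groups hold 1 array each, and Tg TAC against Tg Sham rests on the doubted library labelled Tg Sham.

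The members with the smallest p over both genotypes were again Atp5c1, Atp5md and Sdhb. Over both genotypes Atp5c1 differed by -0.33 ± 0.09, Atp5md by -0.45 ± 0.15 and Sdhb by -0.28 ± 0.11 (limma adjusted p = 0.82 for each). Within WT the differences were -0.33 for Atp5c1, -0.38 for Atp5md and -0.17 for Sdhb. Within Tg they were -0.32, -0.51 and -0.39 for the same genes in that order. The comparisons by surgery and by genotype draw on the same TAC arrays. In complex III, 0 of 7 members were higher in WT TAC than in WT Sham and 7 were lower, between -0.30 in Uqcrq and -0.02 in Uqcrc2, while 43.4% of all genes were lower. Without the doubted libraries Cyc1 was at 0.02 and Uqcrc1 at 0.09, and the other 5 remained below 0. In Tg ventricles 3 of these 7 were higher after TAC.

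At the upper end, Cox8b differed by 0.23 ± 0.19 between WT TAC and WT Sham. For Cox6b2 in Tg TAC against Tg Sham only the bound given above holds. In complex V, Atp5e, for the epsilon subunit at the foot of the rotor, read 9.53 and 10.07 in Tg TAC, 9.78 in the library labelled Tg Sham, 9.50 and 9.64 in WT TAC and 9.35 in WT Sham. Atp5l, for subunit g, read 14.67 and 14.58 in Tg TAC, 14.55 in the library labelled Tg Sham, 14.61 and 14.55 in WT TAC and 14.60 in WT Sham. At the lower end of complex IV, Cox7a2l, whose product joins complexes III and IV, differed by -0.16 ± 0.18 between WT TAC and WT Sham. It read 12.22 and 12.41 in Tg TAC, 12.29 in the library labelled Tg Sham, 12.22 and 12.26 in WT TAC and 12.40 in WT Sham. In all 3 genes the TAC arrays of the genotypes overlapped.

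Whether the response to TAC differed between Tg and WT was tested as an interaction. By limma 0% of all genes and 0 members passed an adjusted p of 0.05. The members' median was -0.08, against -0.02 over all genes, and it was 0.02 after median scaling, where all genes stood at 0.09. Cox4i2 had the widest value, -1.31 ± 0.62 (limma adjusted p = 1).

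Genes that work with these complexes were read from lists. Subunits encoded by mitochondrial DNA did not share a direction. COX2, a core subunit of complex IV, read 14.03 and 14.03 in Tg TAC and 14.27 in the library labelled Tg Sham, against 14.60 and 14.61 in WT TAC and 14.75 in WT Sham, a difference of -0.57 between the TAC groups (limma adjusted p = 0.67). ATP6, the membrane subunit of complex V next to the c ring, read 14.30 and 14.44 in Tg TAC, 14.45 in the library labelled Tg Sham, 14.26 and 14.52 in WT TAC and 14.36 in WT Sham. CYTB, the mitochondrial subunit of complex III, differed by 0.06 between Tg TAC and WT TAC. Of the 8 mitochondrially encoded genes measured, 3 were higher and 5 lower in Tg TAC, with complex I included. ND5 had the widest difference at 3.01 (limma adjusted p = 0.67), reading 8.007 and 9.056 in Tg TAC and 7.245 in the library labelled Tg Sham, against 5.390 and 5.664 in WT TAC and 4.938 in WT Sham. Its WT values lay near the floor, as the lowest detected signal was 5.44 on the array labelled Tg Sham. The size of the ND5 difference is therefore uncertain. ND6 and ND4L, also of complex I, differed by -0.88 and -0.72.

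Atpif1, for the protein that blocks the synthase from running backwards, stood on the other side. It read 13.81 and 13.65 in Tg TAC and 13.17 in the library labelled Tg Sham, against 13.35 and 13.21 in WT TAC and 12.75 in WT Sham. TAC arrays were above the sham array within each genotype label, and Tg TAC was above WT TAC by 0.45 (limma adjusted p = 0.67). Of 8 measured genes for electron carriers and adenine nucleotide exchange, Atpif1 among them, 7 were higher and 1 lower in Tg TAC. Their median was 0.19. Slc25a3, a carrier of phosphate, was the lower one at -0.22, and Slc25a5, a carrier of adenine nucleotides, differed by 0.29. Vdac2 had the widest difference of this list at 0.50 (limma adjusted p = 0.68).

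**Figure D5:**
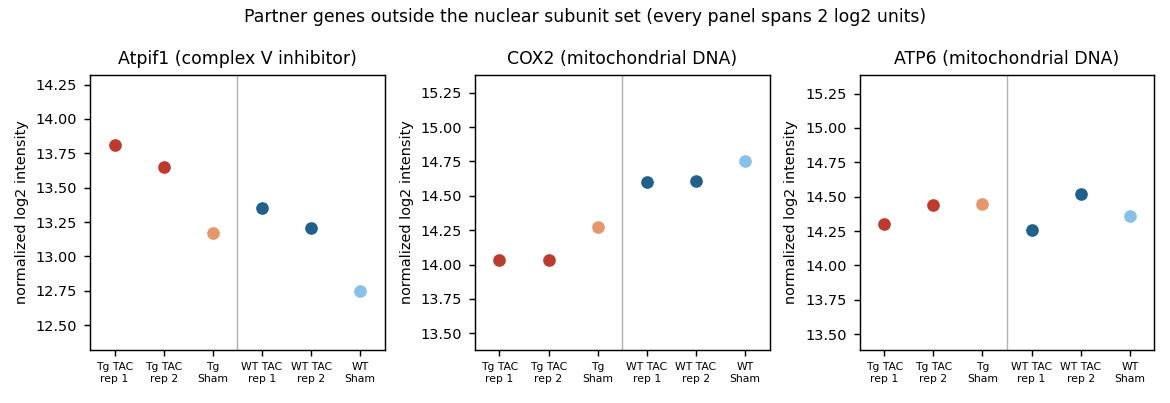
Normalized log2 intensity on each array for Atpif1, the inhibitor of complex V, and for COX2 and ATP6, subunits of complexes IV and V encoded by mitochondrial DNA, each panel spanning 2 log2 units. Atpif1 is highest in the 2 Tg TAC arrays, COX2 is lower on all 3 arrays labelled Tg, and ATP6 does not separate the labels.

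Of 34 measured complex I subunits, 9 were higher and 25 lower in Tg TAC than in WT TAC, with a median of -0.11. Assembly factors of complexes II to V numbered 29, with 14 higher, 15 lower and a median of -0.03. Citric acid cycle genes numbered 12, with 5 higher, 7 lower and a median of -0.12. Of 15 transcription regulators for this machinery, 10 lay above and 5 below, around a median of 0.14. There, Ppargc1a, a coactivator of mitochondrial biogenesis, read 9.711 and 10.35 in Tg TAC, 9.733 in the library labelled Tg Sham, 11.34 and 9.898 in WT TAC and 11.52 in WT Sham, so the arrays overlapped. No gene of these lists passed an adjusted p of 0.05.

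The arrays of replicate 1 differed from those of replicate 2 in cell type markers. On the Tg TAC arrays the median of the members relative to each gene's mean was -0.12 for replicate 1 and -0.01 for replicate 2, and on the WT TAC arrays it was -0.01 and 0.09 in the same order. Fibroblast markers (10 measured) ran the other way, with medians of 0.58 and -0.40 on the Tg TAC arrays and 0.40 and -0.26 on the WT TAC arrays, and so did 15 macrophage markers, with 0.27 and -0.20 against 0.40 and -0.21. Cardiomyocyte markers stayed between -0.04 and 0.06 on all arrays. Summed normalized intensity of the fibroblast markers was 23581 and 17854 in Tg TAC against 25726 and 18383 in WT TAC. Tg TAC replicate 1 held the lowest value for 20 of the 40 members. The part of these cells in the members' levels was not tested.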

How the data were processed

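Total RNA (500 ng) of 6 left ventricles was amplified and hybridised to Illumina bead arrays, 1 array per mouse. The authors deposited raw probe intensity values, for which the submitters' processing notes name GenomeStudio 2011.1. They also deposited a detection p-value beside every intensity. A second deposited table held quantile normalized intensity on a linear scale with no background subtraction, which served as an alternative.

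Background was corrected by normexp with the control level inferred from detection p-values and an offset of 16, and log2 values were quantile normalized (R 4.3.3, limma 3.58.1). Of 45281 probes, the 17014 with a detection p under 0.01 on 2 or more arrays were retained, and the probe with the highest mean stood for a gene. Symbols came from the platform annotation, where 34885 probes had 1 symbol, 18 several and 10378 none, and no probe with several was named. No column without a sample was found (0).

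The 4 group means were fitted together by lmFit and eBayes (intensity trend on), leaving 2 residual degrees of freedom, or 3 in the additive model of surgery and genotype. Sham groups of 1 array were assumed to vary like the TAC groups. P-values were adjusted over all genes by Benjamini-Hochberg. No depth in reads exists for arrays, and the number of arrays limits the precision. The fit was tested on simulated data.

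Values were given in every array for up to 4 members per complex with the smallest p in Tg TAC against WT TAC, for the extremes of each TAC comparison and for isoform pairs. Regulator and partner genes were named where a result turned on them. Members, gene lists and tests were chosen with earlier results of these data known. Promoters were RefSeq sequences of GRCm38.p6, and protein sequences were not used here.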

Additional observations from a re-analysis of the deposited data

How the results depend on the processing

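With 2 arrays at most in a group, 0 of 9577 genes passed the threshold in any comparison. The methods' t-test called 0 genes in Tg TAC against WT TAC after Benjamini-Hochberg adjustment, with 699 at an unadjusted p below 0.05. When 1 array was left out, 4 to 7 of 40 members changed sign in Tg TAC minus WT TAC. In TAC minus Sham without both doubted libraries, which compares WT TAC replicate 2 with WT Sham alone, 14 of 40 did. Median scaling in place of quantiles gave member medians of -0.20 for Tg TAC minus WT TAC, -0.11 for WT TAC minus WT Sham, -0.12 for Tg TAC minus Tg Sham, -0.09 for TAC minus Sham, 0.021 for the interaction, -0.21 for Tg minus WT (with 1 gene called) and -0.26 for Tg Sham minus WT Sham. Without the libraries labelled WT TAC replicate 1 and Tg Sham, Tg minus WT becomes the same contrast as Tg TAC minus WT TAC, with WT TAC a single array, and it had a median of -0.11 and 2 genes called. Replicates of the same number carried no stated pairing, although replicate 1 and both sham mice bear numbers of one series and replicate 2 of another, and the deviations of the TAC pairs correlated at r = 0.54 over genes, from only 2 pairs. A replicate block raised the genes called to 7 in Tg TAC minus WT TAC, 57 in Tg TAC minus Tg Sham, 93 in TAC minus Sham (median -0.11) and 422 in Tg minus WT, 5 of them members (Sdhc, Cox6c, Cox7b, Atp5c1 and Atp5md). Leaving out each replicate in turn gave member medians of -0.12 to -0.0048 and 0 to 2 genes called in Tg TAC minus WT TAC, -0.05 to 0.03 and 0 to 1 in WT TAC minus WT Sham, -0.16 to -0.0055 and 0 to 1 in Tg TAC minus Tg Sham, -0.09 to 0.003 and 0 to 4 in TAC minus Sham, -0.18 to 0.022 and 0 to 1 in the interaction, and -0.08 to 0.001 and 0 to 7 in Tg minus WT. Genes over 1 log2 unit apart between the sham arrays numbered 245, but 69 in the authors' table, 122 with an offset of 50 and 340 after median scaling. The cause of these shifts was not tested.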
